A study of Mus musculus with 4 samples.

Results

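Dntt, Il7r, Ly6d, Satb1, Tespa1, Plac8, Rag1, Ikzf1, Mef2c and Cd52 are 10 genes associated with lymphoid priming, chosen by name from 26687 genes counted in single sorted mouse blood stem cells. The choice was made with earlier results of these data known, so counts of members set beside all genes are a description. Of the 10 genes, 9 were listed in every one of the 4 count tables, and Rag1 was listed in the Flt3-ITD and NPMc+/Flt3-ITD tables only and was counted as 0 in the others. The cells were long-term hematopoietic stem cells sorted from marrow of C57BL/6 mice, 8 to 11 weeks old, and each genotype was represented by 1 library. The reference genotype, called Mx here, was MxCRE, which carries a Cre recombinase under the interferon-inducible Mx1 promoter. The other genotypes were NPMc+, a mutant nucleophosmin that is retained in the cytoplasm, Flt3-ITD, an internal tandem duplication that activates the Flt3 receptor, and their combination, NPMc+/Flt3-ITD. The labels do not say whether the mutant mice also carried the Cre transgene, whether they were induced, which surface markers were used for the sort, how many animals were pooled, or of which sex.

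Lymphoid priming is the low, early transcription of lymphocyte genes in multipotent cells that have not yet committed to a lineage. In normal marrow it is described in Flt3-expressing multipotent progenitors downstream of long-term stem cells, where transcription factors such as Ikaros and Mef2c open the lymphoid program before the antigen receptor genes are rearranged. Both T and B cell precursors continue to use much of the program, so that the same transcripts are found in primed progenitors and in early lineage-committed cells. A cell holding transcripts of both Tcf7 and Bcl11b, transcription factors of early T cells, was therefore followed apart from the rest.

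The members differ in the sequence around their start sites as far as the reference allows a look. RefSeq start sites on GRCm38.p6 were found for 7 of the 10 genes, with 15 start sites in all, and Ly6d, Tespa1 and Cd52 had no entry. The 250 bases before the start are shown for Dntt, Satb1 and Mef2c (its most upstream start, as for Satb1), because these genes gave 3 different patterns in the cells: Dntt was higher inside and outside the Tcf7 and Bcl11b cells, Satb1 chiefly inside them, and Mef2c was lower. Capitals mark matches, on either strand, to 5 motifs: the E-box CANNTG bound by E proteins, the Ikaros core TGGGAA, the PU.1 core GAGGAA, the ETS core CCGGAA and the TATA box TATAAA. Overlapping matches were allowed, and none of the matches in these 3 windows overlapped another. Each window lies upstream of the gene and contains no annotated exon.
Dntt, chr19:41029025-41029274, plus strand: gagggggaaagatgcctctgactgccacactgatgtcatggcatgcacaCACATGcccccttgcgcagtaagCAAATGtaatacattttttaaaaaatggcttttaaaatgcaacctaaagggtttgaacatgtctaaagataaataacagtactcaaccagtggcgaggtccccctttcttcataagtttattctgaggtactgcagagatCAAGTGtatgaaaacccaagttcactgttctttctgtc
Satb1, chr17:51833291-51833540, minus strand: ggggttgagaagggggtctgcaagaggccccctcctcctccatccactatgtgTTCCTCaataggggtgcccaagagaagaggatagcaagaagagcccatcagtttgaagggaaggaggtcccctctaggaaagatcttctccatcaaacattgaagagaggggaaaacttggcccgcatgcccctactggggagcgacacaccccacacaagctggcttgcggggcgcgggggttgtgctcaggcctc
Mef2c, chr13:83503784-83504033, plus strand: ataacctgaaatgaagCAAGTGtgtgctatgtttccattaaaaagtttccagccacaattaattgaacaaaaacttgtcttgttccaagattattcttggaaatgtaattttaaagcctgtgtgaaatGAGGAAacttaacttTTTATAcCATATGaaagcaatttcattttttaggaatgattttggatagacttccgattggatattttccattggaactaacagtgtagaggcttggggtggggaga
The Dntt window held 3 E-box matches, at -201, -178 and -38 bases from the start, and none of the other motifs. The Satb1 window held 1 PU.1 core match, at -197, and no E-box match. The Mef2c window held 2 E-box matches at -234 and -100, 1 PU.1 core match at -122 and 1 TATA box match at -107. Base composition differed as well, with 41.6% G and C in the Dntt window, 58.0% in the Satb1 window and 33.6% in the Mef2c window, against a median of 52.4% over all windows. An E-box match was present in 66.2% of 32851 windows of the same length, a PU.1 core match in 23.3%, an Ikaros core match in 21.6%, a TATA box match in 12.4% and an ETS core match in 12.0%. These matches describe letters and were not read as binding sites.

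A barcode was kept as a cell with at least 1000 UMIs (unique molecular identifiers, 1 per captured transcript), 500 genes or more and no more than 10% of UMIs mitochondrial, which left 2519 Mx, 2375 NPMc+ and 2393 Flt3-ITD cells and 3321 cells of NPMc+/Flt3-ITD, called the combined genotype. These held 20943905, 25070675, 21982925 and 26965367 UMIs, with medians of 8094, 9466, 8661 and 7323 per cell. Barcode sequences shared by a pair of libraries numbered 160 over all pairs, 52 of them kept in both, and no doublet caller was run. The stem cell markers Procr and Hlf were both detected in 41.2% of Mx and 32.2% of NPMc+ cells, in 22.1% of Flt3-ITD cells and in 12.4% of cells of the combined genotype. Cells holding both Tcf7 and Bcl11b numbered 3, 2, 3 and 645, or 19.4% of the NPMc+/Flt3-ITD library and 13.6% of its UMIs. Over 17 T-lineage markers, the summed level was 155, 182, 178 and 1410 CPM, with Il2ra at 0 in Mx and NPMc+. Npm1 stood at 1628, 1820, 1724 and 2180 CPM and Flt3 at 29.9, 12.8, 31.8 and 70.9 CPM, and the tables carry no sequence from which a mutant allele could be read. Gm5611, picked once its values were known, followed the NPMc+ label at 1.91, 859, 1.001 and 647 CPM.

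Levels are given as CPM, the UMIs of a gene per 1000000 UMIs of the library. They were compared between libraries and never between genes, since capture of 3' ends differs from gene to gene. A difference was counted from 2-fold where either library reached 20 CPM. Intervals are exact 95% intervals (Clopper-Pearson) that cover counting error only. With 1 library per genotype there was no replicate, no test between genotypes was possible, and genotype and library cannot be told apart. A share of cells was taken after each cell had been thinned to 3000 UMIs, which left out 208, 125, 218 and 330 cells with fewer, in the order Mx, NPMc+, Flt3-ITD and combined genotype that is kept below. As cells in which lymphoid transcripts should be absent, erythroid-committed cells were taken, defined by UMIs of at least 3 of 7 erythroid genes with a row. They numbered 36, 141, 32 and 17, with median depths of 14208, 14191, 14782.5 and 14949 UMIs, above the medians of all cells.

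In the NPMc+/Flt3-ITD library 5 of the 10 genes were at least 2-fold higher than in Mx: Dntt, Ly6d, Satb1, Tespa1 and Plac8. Ikzf1 was higher by less than 2-fold, Cd52 was level, and Mef2c was lower by less than 2-fold, so that the genes of the list did not move as 1 unit. Il7r was higher but stayed below the 20 CPM floor, and Rag1 was close to absent. Over all genes at the floor, 5.42% were counted higher and 5.74% lower in the same comparison. The median log2 ratio was 2.58 over the 8 members at the floor against 0.21 over all 6938 genes. Dntt, Ly6d and Satb1 reached the floor only through their level in NPMc+/Flt3-ITD, and so did Tespa1 against Mx. The counts of higher members and the median of 2.58 are therefore raised by the floor rule and are a description. Plac8, Ikzf1, Cd52 and Mef2c, at the floor in both libraries, had log2 ratios of 2.49, 0.71, 0.03 and -0.62. All comparisons with Mx share that library.

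**Figure D1:**
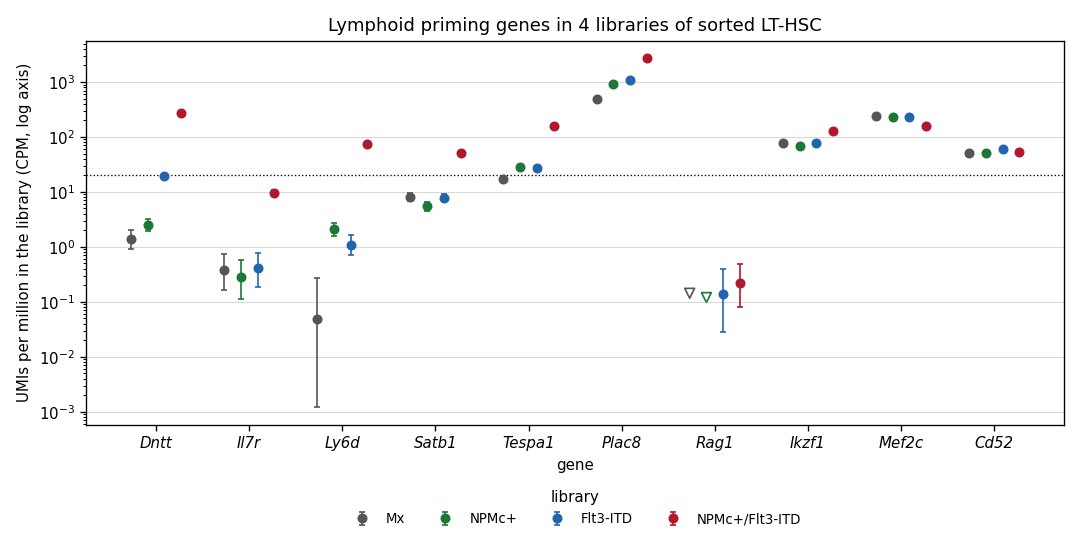
CPM of each gene (log axis) in the 4 libraries over all kept cells, 1 point per gene and library, with exact 95% intervals for counting error; genes with 0 UMIs have no point. Dntt goes from 1.38 CPM in Mx to 276 CPM in NPMc+/Flt3-ITD, while Mef2c goes from 239.9 to 156 CPM.

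Among receptors, Il7r encodes the alpha chain of the interleukin 7 receptor, the cytokine receptor on which early lymphoid cells depend. It gave 8 UMIs in Mx, against 7 in NPMc+, 9 in Flt3-ITD and 255 in the combined genotype, or 0.382, 0.279, 0.409 and 9.46 CPM. Only the library of the combined genotype stood apart, at 24.8-fold the Mx level (12.4 to 58.0). After thinning, 0.173%, 0.133%, 0.092% and 3.41% (2.79 to 4.12) of cells held a UMI, and without thinning 0.198%, 0.168%, 0.293% and 5.24%. None of the erythroid-committed cells of any library held 1 after thinning, and the largest group of them, 0 of 140 in NPMc+, allows a share of up to 2.14%. In NPMc+/Flt3-ITD itself they were 0 of 17, which allows up to 17.6%, and up to 9.93 CPM at full depth. Both limits lie above the 3.41% and 9.46 CPM of that library, so these cells are too few to set a background for it.

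Dntt encodes terminal deoxynucleotidyl transferase, the polymerase that adds untemplated bases at the joints of rearranging antigen receptor genes. It gave 29 UMIs in Mx, against 63 in NPMc+, 422 in Flt3-ITD and 7439 in the combined genotype, or 1.38, 2.51, 19.2 and 276 CPM. The single Flt3-ITD genotype lay between Mx and the combined genotype, at 13.9-fold the Mx level (9.51 to 21.0), although just under the 20 CPM floor. The combined genotype was 199-fold above Mx (139 to 298), 110-fold above NPMc+ (85.7 to 143) and 14.4-fold above Flt3-ITD (13.0 to 15.9). The difference lay both in the number of cells and in the UMIs per cell. A UMI was held by 0.303% of Mx and 0.356% of NPMc+ cells, by 3.59% (2.84 to 4.46) of Flt3-ITD cells and by 36.4% (34.7 to 38.2) of cells of the combined genotype at 3000 UMIs, and by 0.476%, 1.01%, 8.57% and 52.8% without thinning. Cells with Dntt held on average 2.42, 2.62, 2.06 and 4.24 UMIs of it.

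The low Mx and NPMc+ values of Dntt rested on few cells. In Mx 1 cell held 13 of the 29 UMIs, and in NPMc+ 1 cell held 29 of the 63. Both were cells that also held Tcf7 and Bcl11b, and without the few such cells Mx kept 11 UMIs (0.527 CPM) and NPMc+ 34 (1.36 CPM). The 1.81-fold difference between NPMc+ and Mx (1.15 to 2.92) therefore describes a few cells in each. Without the cells holding both Tcf7 and Bcl11b it was 2.58-fold (1.28 to 5.64), with Dntt held by 23 NPMc+ and 10 Mx cells. Of erythroid-committed cells, 0 of 36 in Mx, 0 of 140 in NPMc+ and 0 of 32 in Flt3-ITD held Dntt after thinning, which allows shares of up to 8.33%, 2.14% and 9.38%. In NPMc+/Flt3-ITD it was 1 of 17, or 5.88% (0.149 to 28.7). The Flt3-ITD share of all cells lies under the limit of its own erythroid-committed cells, which are too few to set so low a background for a thinned share. At full depth they held 0 Dntt UMIs, which allows up to 5.69 CPM, against 19.2 CPM in all Flt3-ITD cells.

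Rag1 encodes the recombinase subunit that cuts antigen receptor genes together with Rag2. It gave 0 UMIs in Mx, against 0 in NPMc+, 3 in Flt3-ITD and 6 in the combined genotype. The ratio of the combined genotype to Flt3-ITD was 1.63 with a counting interval of 0.348 to 10.1. Against Mx and NPMc+ only a bound could be set. Rag1 stayed close to undetected in the library in which the polymerase Dntt was detected in 36.4% of cells. Of the 6 UMIs in NPMc+/Flt3-ITD, 83.3% were in cells holding both Tcf7 and Bcl11b. Part of a Rag1 exon, 80 bases, is shared with B230118H07Rik on the same strand, so reads there could be assigned to either gene.

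Ikzf1 encodes Ikaros, a zinc finger factor needed for lymphoid development and also expressed in stem cells. It stood at 78.8 CPM in Mx, against 68.3 in NPMc+, 79.2 in Flt3-ITD and 129 in the combined genotype. The combined genotype was above the others, at 1.64-fold the Mx level (1.55 to 1.74), and NPMc+ was 1.15-fold below Mx. In Flt3-ITD the sign turned with the scaling, with a log2 ratio to Mx of 0.15 with TMM factors and -0.04 without mitochondrial and ribosomal protein genes in the total. The share of cells was 21.7%, 20.3%, 21.3% and 33.9% at 3000 UMIs and 45.7%, 48.7%, 48.9% and 60.1% without thinning. In erythroid-committed cells the shares were 22.2%, 21.4%, 9.38% and 29.4%, so that Ikzf1 was detected in cells of the erythroid lineage as well.

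Satb1 encodes a chromatin organizer that promotes lymphoid fate in stem cells and is abundant in thymocytes. It stood at 8.12 CPM in Mx, against 5.46 in NPMc+, 7.87 in Flt3-ITD and 52.1 in the combined genotype. The combined genotype was 6.42-fold above Mx (5.47 to 7.57), while NPMc+ lay 1.49-fold below Mx (1.18 to 1.87) with both under the floor. A UMI was held by 2.51%, 1.91%, 2.30% and 13.9% (12.7 to 15.2) of cells at 3000 UMIs, by 5.95%, 4.72%, 6.81% and 23.2% without thinning, and by no erythroid-committed cell at 3000 UMIs in any library. In NPMc+/Flt3-ITD that was 0 of 17, which allows up to 17.6%, above the 13.9% of all cells. At full depth 3 of the 17 held Satb1, at 9.93 CPM (2.05 to 29.0) against 52.1 CPM in the whole library. Exons of Satb1 share 156 bases with Gm36931 on the same strand and 128 bases with Gm6934 on the other, and the strand setting of the counting is not given in the sources used here.

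Mef2c encodes a MADS box factor that favours lymphoid over myeloid fate in multipotent progenitors and is high in stem cells. It stood at 239.9 CPM in Mx, against 231 in NPMc+, 229.7 in Flt3-ITD and 156 in the combined genotype. The single mutants differed from Mx by 1.04-fold each, and the combined genotype was 1.54-fold lower (1.48 to 1.61). A UMI was held by 49.5%, 45.1%, 46.8% and 33.7% of cells at 3000 UMIs and by 78.5%, 77.7%, 77.9% and 58.4% without thinning. In erythroid-committed cells the shares were 47.2%, 39.3%, 53.1% and 52.9%.

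Plac8 encodes a small cysteine-rich protein of early lymphoid and myeloid progenitors. It stood at 484 CPM in Mx, against 938 in NPMc+, 1088 in Flt3-ITD and 2710 in the combined genotype. Every mutant library was above Mx, at 1.94-fold in NPMc+ (1.89 to 1.98), 2.25-fold in Flt3-ITD (2.20 to 2.30) and 5.60-fold in the combined genotype (5.48 to 5.72). Most cells of each library already held a UMI, 59.6%, 76.8%, 85.7% and 98.1% at 3000 UMIs and 74.5%, 90.4%, 93.7% and 99.01% without thinning. The rest of the difference lay in the amount per cell, since cells with Plac8 held on average 5.40, 11.0, 10.7 and 22.2 UMIs of it. Erythroid-committed cells held it in 77.8%, 79.3%, 71.9% and 94.1%, so Plac8 was not restricted to cells with lymphoid genes in these libraries.

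Tespa1 encodes a protein of T cell receptor signalling that is needed for positive selection of thymocytes. It stood at 17.2 CPM in Mx, against 28.9 in NPMc+, 27.0 in Flt3-ITD and 160.3 in the combined genotype. Each single mutant was above Mx by less than 2-fold, at 1.68-fold (1.48 to 1.91) and 1.57-fold (1.37 to 1.79), and the combined genotype was 9.33-fold above Mx (8.37 to 10.4). A UMI was held by 4.85%, 7.82%, 6.25% and 35.9% (34.2 to 37.7) of cells at 3000 UMIs, and by 10.4%, 18.1%, 17.7% and 63.0% without thinning. Of erythroid-committed cells, 0 of 36 in Mx, 0 of 140 in NPMc+ and 1 of 32 in Flt3-ITD held it at 3000 UMIs. In NPMc+/Flt3-ITD it was 3 of 17, or 17.6%, with an interval of 3.80 to 43.4 that contains the 35.9% of all cells. At full depth those cells stood at 36.4 CPM (18.2 to 65.1), against 160.3 CPM in the whole library.

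Ly6d encodes a surface protein used to divide common lymphoid progenitors, with the positive cells biased to the B lineage. It gave 1 UMI in Mx, against 53 in NPMc+, 24 in Flt3-ITD and 2019 in the combined genotype, or 0.0477, 2.11, 1.09 and 74.9 CPM. With 1 UMI in Mx the ratio of the combined genotype, 1568, had a counting interval of 281 to 61969. Against the single mutants it was 35.4-fold higher than NPMc+ (27.0 to 47.4) and 68.6-fold higher than Flt3-ITD (46.0 to 107). The NPMc+ value came from 11 cells, 1 of which held 22 of the 53 UMIs, and the Flt3-ITD value from 9 cells. No Mx cell held it at 3000 UMIs (0 of 2311, which allows up to 0.13%), against 0.222%, 0.184% and 8.43% (7.45 to 9.48) in the other libraries, and without thinning the shares were 0.0397%, 0.463%, 0.376% and 13.0%. Of erythroid-committed cells, 1 of 17 in NPMc+/Flt3-ITD held it after thinning and none in the other libraries.

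Cd52 encodes a short glycoprotein anchored on the surface of lymphocytes. It stood at 51.2 CPM in Mx, against 50.2 in NPMc+, 59.3 in Flt3-ITD and 52.2 in the combined genotype, the most even levels of the list. Its ratio to Mx was 1.02 in the combined genotype (0.942 to 1.11). The sign of its ratio to Mx turned under other scalings: the log2 ratio was -0.17 in the combined genotype when mitochondrial and ribosomal protein genes were left out of the total, and 0.11 in NPMc+ with TMM factors. The share of cells was 11.9%, 11.6%, 13.9% and 14.01% at 3000 UMIs and 25.1%, 27.5%, 32.5% and 29.6% without thinning, and the share of erythroid-committed cells was 2.78%, 6.43%, 6.25% and 0% (0 of 17, which allows up to 17.6%). Cd52 shares 145 exon bases with Crybg2 on the other strand.

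Set against each other, the 5 comparisons gave the following counts. For NPMc+ against Mx none of 5 members at the floor was counted, against 1.78% of all genes higher and 2.23% lower, and Plac8 at 1.94-fold was the closest to the threshold. For Flt3-ITD against Mx only Plac8 of 5 members was counted higher, against 2.38% of all genes higher and 1.74% lower. For the combined genotype against NPMc+, 5 of 8 members were counted higher, against 5.51% of all genes higher and 4.59% lower. For the combined genotype against Flt3-ITD, 5 of 8 were higher, against 4.28% of all genes higher and 4.46% lower. No member was counted lower in any of the 5 comparisons. The 5 higher members were Dntt, Ly6d, Satb1, Tespa1 and Plac8 each time, with Plac8 at 2.89-fold against NPMc+ and 2.49-fold against Flt3-ITD, and Tespa1 at 5.54-fold and 5.94-fold. Within female cells, of which NPMc+/Flt3-ITD held 179, Tespa1 was 1.05-fold (0.816 to 1.35) and Plac8 1.80-fold the NPMc+ level, and Satb1 was under the floor, so that none of the 3 was counted against NPMc+ there.

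A change of scaling multiplies every gene of a library by 1 factor and changes which genes reach the floor. The median log2 ratio of the combined genotype to Mx was 0.21 with library totals, 0.19 with TMM factors and -0.02 without mitochondrial and ribosomal protein genes. Of the genes counted in that comparison 48.6% were higher with library totals, 47.2% with TMM factors and 34.9% with the reduced total. The same 3 shares were 44.3%, 62.2% and 34.7% for NPMc+ against Mx and 57.8%, 73.0% and 48.6% for Flt3-ITD against Mx. For the combined genotype they were 54.5%, 42.5% and 44.7% against NPMc+ and 49.0%, 36.2% and 38.9% against Flt3-ITD. In those scalings Dntt stayed 199-fold, 195-fold and 174-fold above Mx in the combined genotype, Plac8 5.60-fold, 5.49-fold and 4.89-fold, and Mef2c 1.54-fold, 1.57-fold and 1.76-fold lower. For the single mutants Mef2c changed sign with the scaling, since its log2 ratio with TMM factors was 0.09 in NPMc+ and 0.08 in Flt3-ITD.

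Leaving out the cells that held both Tcf7 and Bcl11b separated the members into those that kept most of their difference and those that did not. In NPMc+/Flt3-ITD these cells held 80.9% of the Ly6d UMIs, 76.9% of the Il7r UMIs, 73.2% of the Satb1 UMIs and 48.8% of the Dntt UMIs. They held 33.9% of Plac8, 30.002% of Tespa1, 27.8% of Ikzf1, 16.8% of Cd52 and 4.50% of Mef2c, where their part of all UMIs was 13.6%. Their median depth was 4809 UMIs against 8033.5 in the other cells of the library, and the part of depth was not tested.

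**Figure D2:**
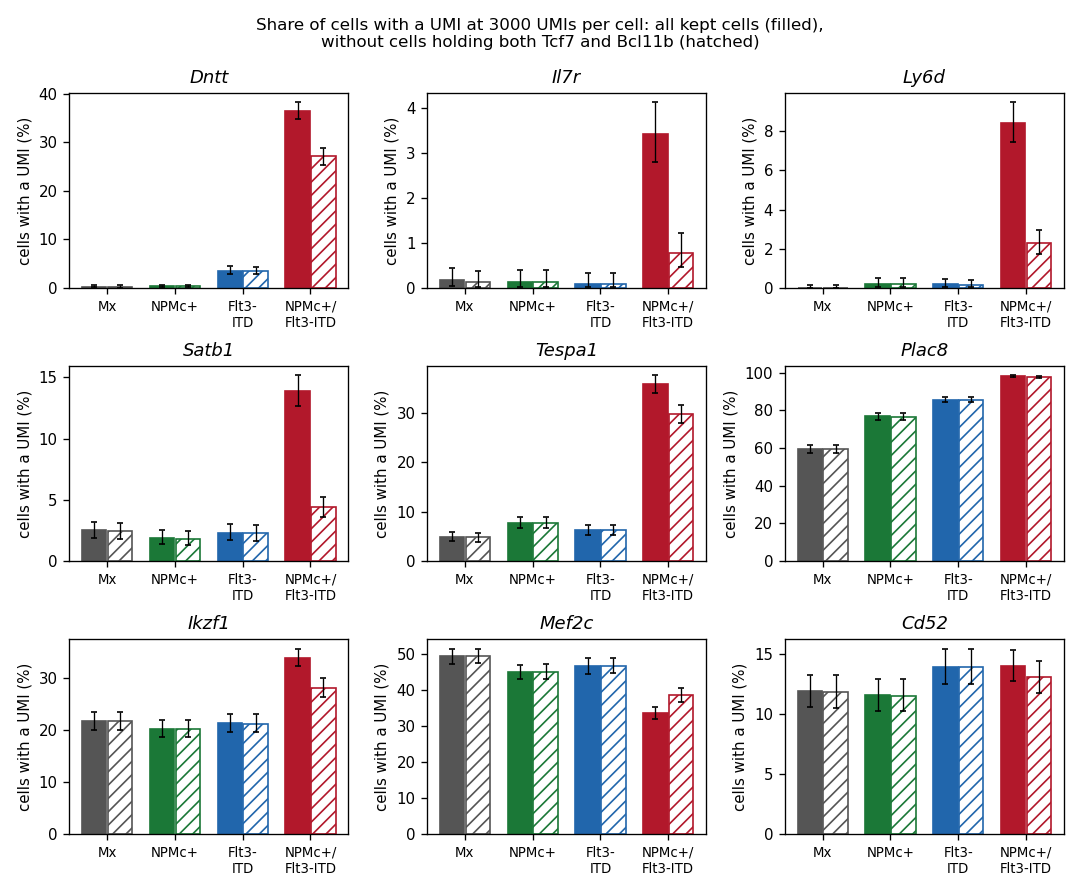
Share of cells (percent) with at least 1 UMI of each gene at 3000 UMIs per cell in the 4 libraries, over all kept cells and without cells holding both Tcf7 and Bcl11b, with exact 95% binomial intervals. In NPMc+/Flt3-ITD the Dntt share is 36.4% with and 27.1% without those cells, and the Satb1 share 13.9% and 4.38%.

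Without these cells, Dntt stood at 163 CPM in NPMc+/Flt3-ITD and was held by 27.1% (25.3 to 28.9) of 2443 cells. That was 310-fold above Mx (173 to 622), 120-fold above NPMc+ and 9.02-fold above Flt3-ITD, whose own value changed little, at 18.1 CPM. The higher ratio to Mx came with a Mx value lowered from 29 to 11 UMIs. Tespa1 stood at 130 CPM and 29.8% of cells, 7.64-fold above Mx (6.84 to 8.55). Plac8 stood at 2073 CPM and 97.7% of cells, 4.34-fold above Mx (4.24 to 4.43), and its ratio to Flt3-ITD fell below 2-fold, at 1.92.

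Satb1, Ly6d and Il7r were under the floor without these cells. Satb1 stood at 16.1 CPM and 4.38% of cells, 2.13-fold above Mx (1.77 to 2.59). Ly6d stood at 16.6 CPM and 2.29% of cells, and Il7r at 2.53 CPM and 0.778%. Rag1 kept 1 UMI. Ikzf1 stood at 108 CPM, 1.37-fold above Mx, Cd52 at 50.3 CPM, and Mef2c at 172 CPM, 1.40-fold below Mx. The counted members were then Dntt, Tespa1 and Plac8, 3 of 6 at the floor, against Mx and against NPMc+, and Dntt and Tespa1, 2 of 6, against Flt3-ITD. Over all genes without these cells, 4.64% were higher and 5.56% lower against Mx, 4.6% and 4.36% against NPMc+, and 3.4% and 4.4% against Flt3-ITD.

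A division of the NPMc+/Flt3-ITD cells by Tcf7 and Bcl11b showed where each member was highest. At 3000 UMIs there were 1869 cells with neither gene, 398 with Tcf7 only, 176 with Bcl11b only and 548 with both. These classes were defined by detection in unthinned cells. The summed level of the 17 T-lineage markers in them was 459, 1217, 854 and 6394 CPM. Tcf7 and Bcl11b are themselves among those markers, so the order of the sums was in part set by the class rule. Dntt was held by 23.8%, 39.4%, 33.5% and 78.3% of them, Tespa1 by 27.9%, 37.2%, 32.4% and 63.3%, and Ikzf1 by 27.1%, 30.4%, 33.0% and 59.9%. Each share was highest in the class holding both genes. In the 17 erythroid-committed cells of this library the shares were 5.88% (0.149 to 28.7), 17.6% (3.80 to 43.4) and 29.4%. The Ikzf1 share of the cells with neither gene was not above that of the erythroid-committed cells. Their Dntt and Tespa1 shares lay within the wide intervals of the latter. By CPM at full depth, Dntt stood at 16.5 (5.37 to 38.6) in erythroid-committed cells against 136 in cells with neither gene. Tespa1 stood at 36.4 (18.2 to 65.1) against 124 CPM, and Ikzf1 at 116 (80.7 to 161) against 104 CPM.

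Satb1, Ly6d and Il7r had a steeper division. Satb1 was held by 2.94%, 10.8%, 5.11% and 56.2% of the cells in the same order, Ly6d by 1.23%, 6.53%, 3.98% and 35.8%, and Il7r by 0.107%, 3.77%, 1.14% and 15.1%. For cells with neither gene, the Satb1 share of 2.94% (2.22 to 3.81) stood beside 2.40% (1.81 to 3.11) of Mx cells with neither gene at 3000 UMIs, and at full depth 8.12% (6.98 to 9.39) beside 5.79% (4.91 to 6.78). Plac8 was detected almost everywhere, at 97.4%, 98.99%, 97.2% and 99.8%, but its level in the cells with both genes was 6753 CPM against 1883 CPM in those with neither. Mef2c ran the other way, at 40.02%, 32.4%, 38.1% and 11.7%. Cd52 was held by 11.9%, 17.1%, 15.9% and 18.2%.

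**Figure D3:**
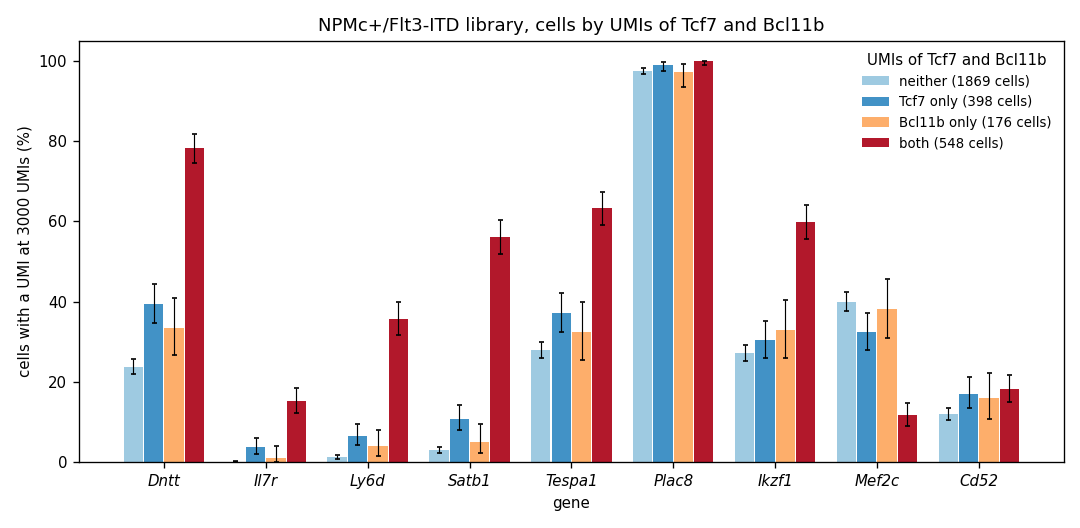
Share of NPMc+/Flt3-ITD cells (percent) with at least 1 UMI of each gene at 3000 UMIs per cell in 4 classes of cells, those holding neither Tcf7 nor Bcl11b, Tcf7 only, Bcl11b only, or both, with exact 95% binomial intervals. Satb1 goes from 2.94% to 56.2% and Mef2c from 40.02% to 11.7% between the class with neither gene and the class with both.

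Summed B-lineage markers and summed natural killer and innate lymphoid markers were higher in each mutant library than in Mx. Those of stem cells were lower, at a summed level of 1410, 1106, 761 and 643 CPM over 12 genes. In cells with no Dntt UMI and not holding both Tcf7 and Bcl11b, granulocyte markers summed to 710, 696, 713 and 786 CPM. There erythroid markers summed to 187, 291, 158 and 131 CPM and megakaryocyte markers to 314, 1102, 312 and 394 CPM. Over 11 B-lineage markers the summed level was 49.5, 1395, 85.8 and 199.6 CPM, highest in NPMc+, and Ms4a1 and Igll1 were at 0 in Mx. Cells holding both Cd79a and Cd79b, which are among the B-lineage markers, numbered 0, 4, 2 and 4. Over 10 natural killer and innate lymphoid markers the summed level was 157, 432, 304 and 746 CPM. That list includes Nkg7, whose part of the sum was not separated. Without cells holding both Tcf7 and Bcl11b, Nkg7 was held by 25.4% of Mx and 72.5% of NPMc+/Flt3-ITD cells at 3000 UMIs. T-lineage markers remained above the other libraries in NPMc+/Flt3-ITD without the cells holding both Tcf7 and Bcl11b, at 625 CPM against 143, 173 and 173 CPM. Whether cells of these lineages contribute to the remaining Dntt and Tespa1 levels was not tested.

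The members were also read in cells holding both Procr and Hlf, a division added after the data had been seen. At 3000 UMIs these were 998, 751, 520 and 411 cells. Dntt stood at 0.443, 0.969, 25.4 and 179 CPM and was held by 0.301%, 0.266%, 4.62% and 30.2% (25.8 to 34.9) of them. Tespa1 stood at 12.8, 26.4, 23.5 and 113 CPM, and Plac8 at 377, 706, 904 and 1630 CPM. For these 3 genes the order of the combined genotype above the other libraries held in cells with both stem cell markers.

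Satb1 did not keep its difference there, and Mef2c, Ikzf1 and Cd52 were within 2-fold of Mx in every library. It stood at 10.8, 5.45, 8.02 and 9.76 CPM, a log2 ratio of the combined genotype to Mx of -0.15 with a counting interval of -0.71 to 0.38. Il7r gave 1, 0, 0 and 1 UMIs in these cells. Ly6d stood at 0.111, 0.485, 0 and 5.81 CPM. Mef2c stood at 230, 185, 204 and 170 CPM, Ikzf1 at 82.9, 68.6, 86.8 and 106 CPM, and Cd52 at 44.4, 37.3, 46.8 and 38.8 CPM.

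Detection of several members in the same cell was counted at 3000 UMIs. Cells held on average 1.505 of the 10 genes in Mx, against 1.64 in NPMc+, 1.80 in Flt3-ITD and 2.78 in the combined genotype. At least 4 of the genes were held by 2.90% (2.25 to 3.67), 2.44%, 3.17% and 26.0% (24.4 to 27.6) of cells. Without the cells holding both Tcf7 and Bcl11b the last value was 15.1% (13.7 to 16.6), and among cells with neither gene 12.1%, while among cells with both it was 74.3%. Much of the number in the first 3 libraries came from Plac8 and Mef2c, the members detected most often there.

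**Figure D4:**
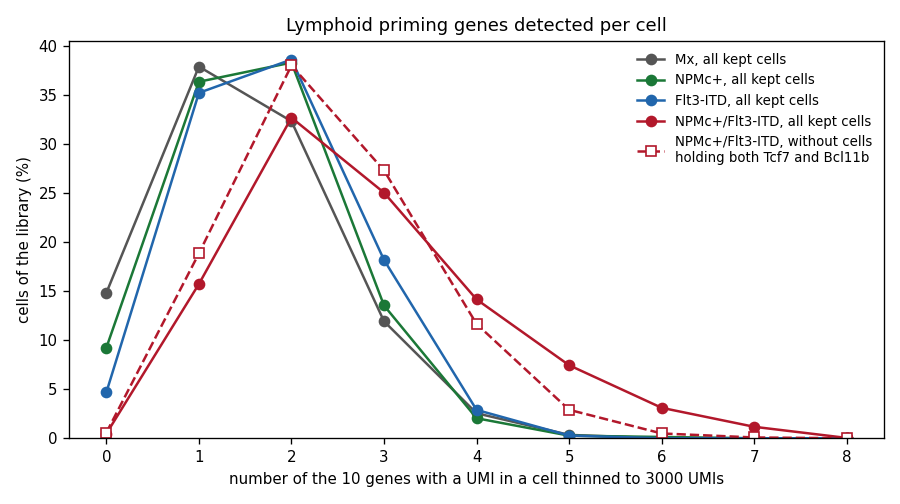
Share of cells (percent) by the number of the 10 genes with at least 1 UMI at 3000 UMIs per cell, for the 4 libraries and for NPMc+/Flt3-ITD without cells holding both Tcf7 and Bcl11b. Cells with 4 or more of the genes make up 2.90% of Mx and 26.0% of NPMc+/Flt3-ITD, and 15.1% of the latter without those cells.

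Within NPMc+/Flt3-ITD, without the cells holding both Tcf7 and Bcl11b, the members fell into loosely separate patterns of co-detection. These shares compare cells of 1 library that share its depth and free RNA, and are descriptions. Of the 107 cells with Satb1, 15.9% also held Ly6d against 1.67% of those without, 47.7% held Dntt against 26.1%, and 35.5% held Tcf7 against 6.72%. Of the 56 cells with Ly6d, 30.4% held Satb1 against 3.77%, 12.5% held Il7r against 0.503% and 39.3% held Tcf7 against 7.25%, while Dntt was held by 28.6% against 27.0%. Ly6d, Satb1 and Il7r were thus found together and with Tcf7, and the Dntt share of the few Ly6d cells was close to that of the rest.

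Procr and Hlf were held at about the same share by cells with and without Dntt, while the summed level of the 12 stem cell markers was lower in cells with it. Of the 661 cells with Dntt, 10.7% held Procr against 10.8% of those without, and 24.2% held Hlf against 24.7%. Tespa1 was held by 33.3% against 28.5%, and Mef2c by 34.3% against 40.2%. At full depth, where 1200 cells held Dntt, Hlf stood at 104 CPM in them against 100 CPM in the rest, and Cd48, a surface antigen of committed progenitors, named here once its values were known, at 911 against 628 CPM. Summed over the 12 stem cell markers the level was 615 CPM in cells with Dntt against 774 CPM in the rest, and in Flt3-ITD 621 against 778 CPM. In NPMc+/Flt3-ITD the median depth of cells with Dntt was 10098.5 against 7010 UMIs, and how far depth sets this division was not tested. In Flt3-ITD the 204 cells with Dntt had Flt3 at 63.3 against 28.2 CPM, Tespa1 at 54.6 against 23.6 CPM and Cd52 at 93.7 against 55.1 CPM. At 3000 UMIs, with 77 cells holding Dntt, the shares were 13.0% (6.41 to 22.6) against 8.97% for Flt3, 6.49% (2.14 to 14.5) against 6.21% for Tespa1 and 20.8% (12.4 to 31.5) against 13.7% for Cd52, and for each of the 3 the intervals of cells with and without Dntt overlapped.

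The genes whose detection was most like that of Dntt across NPMc+/Flt3-ITD cells, by the phi coefficient over 2443 cells, were Spp1 (0.141), Clec12a (0.137), Phgdh (0.133) and Pim2 (0.132). For Plac8 in Mx they were Cdk6 (0.213), Nkg7 (0.190), Cd34 (0.181) and Cd48 (0.163). For Cd52 they were Lmtk2 (0.105), Tyrobp (0.0863), Cdkn2aipnl (0.0843) and Lck (0.0830) in NPMc+/Flt3-ITD, and Lat2 (0.141) and Nkg7 (0.119) led in Mx. All of these coefficients are small and come from sparse counts. They are a description, and association was not tested. Il7r was held by 19 NPMc+/Flt3-ITD cells and 3 Mx cells, and Dntt by 6 Mx cells, too few for such a ranking.

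A cell's sex could be read from Xist and from 4 Y-linked genes, and the libraries differed in it. Male cells, with UMIs of the latter but not of Xist, numbered 1218 in Mx, against 1155 in NPMc+, 987 in Flt3-ITD and 2425 in the combined genotype, and female cells, with the reverse, 583, 495, 773 and 179. Each library thus held cells of both sexes, of which the animals are not named, and within a library a difference by sex is also a difference between animals. Of NPMc+/Flt3-ITD cells, 503 of 2425 male cells (20.7%) and 3 of 179 female cells (1.68%, 0.347 to 4.82) held both Tcf7 and Bcl11b. Gm5611, which follows the NPMc+ label, stood at 619 CPM in the male and 846 CPM in the female cells of that library, against 1.55 and 2.52 CPM in Mx.

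In NPMc+/Flt3-ITD Dntt, Tespa1, Il7r, Satb1, Ly6d, Cd52, Ikzf1 and Plac8 were higher in the male cells and Mef2c was higher in the female cells. Dntt stood at 292 CPM in male and 36.6 CPM in female cells, 7.98-fold apart (6.14 to 10.6), and Tespa1 at 167 and 56.9 CPM, 2.93-fold apart (2.37 to 3.67). Satb1 stood at 51.5 and 13.1 CPM, Ly6d at 75.1 and 21.6 CPM, Cd52 at 54.5 and 27.5 CPM and Ikzf1 at 130 and 77.8 CPM. Plac8 was closer, at 2753 and 2074 CPM. Mef2c stood at 252 CPM in female and 145 CPM in male cells, 1.73-fold apart (1.55 to 1.93), and the female level was near that of Mx. Il7r gave 228 UMIs in male and 0 in female cells, at least 5.53-fold apart against a floor of 3 UMIs over the female cells. Without cells holding both Tcf7 and Bcl11b, Dntt stood at 181 CPM and 29.3% of male cells against 29.3 CPM and 10.2% of female cells, Tespa1 at 136 against 54.5 CPM, Ikzf1 at 108 against 77.1 CPM, Cd52 at 53.0 against 25.9 CPM and Mef2c at 162 against 246 CPM. Plac8 was then level, at 2079 and 2047 CPM, and for Satb1 (15.7 and 9.31 CPM) and Ly6d (15.6 and 9.98 CPM) the intervals of the male and female cells overlapped.

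**Figure D5:**
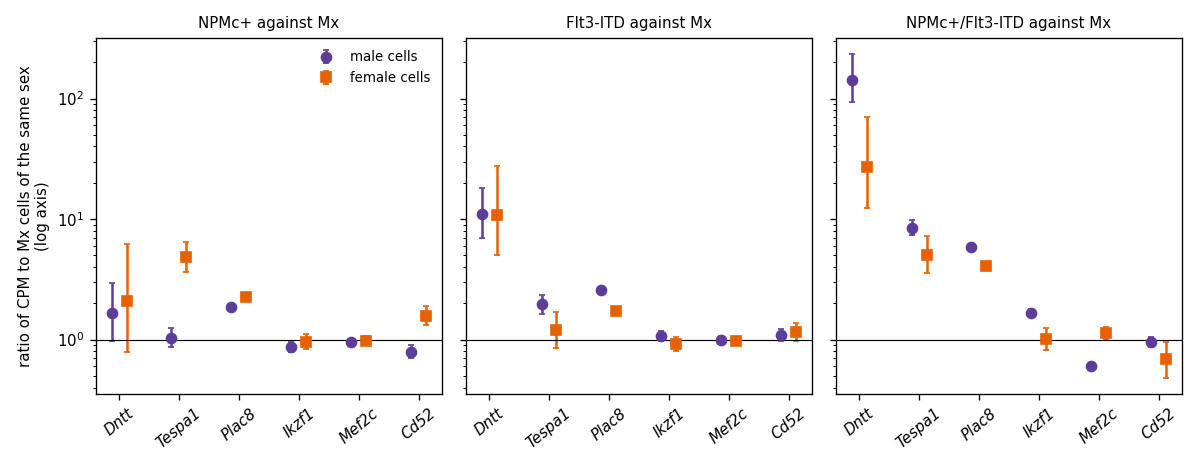
Ratio of CPM to Mx cells of the same sex (log axis) for Dntt, Tespa1, Plac8, Ikzf1, Mef2c and Cd52 in NPMc+, Flt3-ITD and NPMc+/Flt3-ITD. Points show male and female cells, with exact 95% intervals for counting error. Behind the NPMc+/Flt3-ITD ratios lie Dntt at 292 CPM in male and 36.6 CPM in female cells. Mef2c stands there at 145 and 252 CPM.

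The direction by sex was not the same in the other libraries. In NPMc+ Tespa1 was 2.64-fold higher in the female cells (2.21 to 3.14), at 54.1 against 20.5 CPM, and in Flt3-ITD 2.88-fold higher in the male cells, at 38.7 against 13.4 CPM. In Mx it stood at 19.8 CPM in male and 11.3 in female cells. Compared within 1 sex, Dntt in the combined genotype was 144-fold above Mx in male cells (94.0 to 232) and 27.0-fold above Mx in female cells (12.3 to 70.1), Tespa1 8.43-fold and 5.06-fold, and Plac8 5.83-fold and 4.04-fold. Ikzf1 was 1.66-fold above Mx in male cells and 1.02-fold in female cells (0.822 to 1.25), so its higher level was seen in the male cells. The difference between the sexes in these ratios was not tested, since no animals are named.

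The neighbouring genes of the lymphoid program, 71 genes in lists of receptors and signalling, transcription factors, recombination machinery and relatives of the members, were counted in the same way. Like the members, these lists were chosen with earlier results of these data known, so their shares are a description. Against Mx, 1 gene of 38 at the floor (2.63%, against 1.78% of all genes) was higher and 1 lower in NPMc+, and 1 of 38 (2.63%, against 2.38%) was higher in Flt3-ITD. In the combined genotype 5 of 42 (11.9%, against 5.42%) were higher and 1 lower than in Mx, 8 of 42 (19.05%, against 5.51%) higher and 1 lower than in NPMc+, and 7 of 42 (16.7%, against 4.28%) higher and 1 lower than in Flt3-ITD. The median log2 ratio to Mx was -0.04, -0.04 and 0.30, beside the -0.01, -0.06 and 0.21 of all genes. None of the 5 recombination genes at the floor, of 12 in the list, was counted in any comparison. Tyrobp, which encodes an adaptor of natural killer and myeloid receptors, was higher than in Mx in NPMc+ (2.21-fold), in Flt3-ITD (2.39-fold) and in the combined genotype (3.07-fold). Flt3 itself was 2.33-fold lower in NPMc+ (2.03 to 2.67) and 2.37-fold higher in the combined genotype (2.16 to 2.59).

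In the combined genotype the 3 highest of these genes were transcription factor Ets1, Tyrobp and Id2, an inhibitor of E proteins. Ets1 went from 9.79 to 36.05 CPM, 3.68-fold (3.16 to 4.30), and Id2 from 14.3 to 42.8 CPM, with an interval of 2.64-fold to 3.42-fold. Hes1, a Notch target, was the gene counted lower, from 30.5 to 10.5 CPM, 2.92-fold (2.53 to 3.37), followed by Bcl11a at 1.85-fold and Notch2 at 1.82-fold lower. Without the cells holding both Tcf7 and Bcl11b, Ets1 stood at 14.1 CPM against 9.38 CPM in Mx, under the floor, Id2 at 34.2 CPM, Tyrobp at 68.5 CPM and Flt3 at 77.8 CPM, and 4 of 40 genes (10%, against 4.64% of all genes) were higher and 1 lower. In Flt3-ITD the highest after Tyrobp were Hes1 at 1.89-fold and Elf1 at 1.81-fold, and the lowest were Ly6a at 1.86-fold and Bcl11a at 1.67-fold lower. In NPMc+ they were Gfi1b at 1.68-fold and Ly6a at 1.66-fold higher, and, after Flt3, Lsp1 at 1.90-fold and Cd34 at 1.72-fold lower.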

How the data were processed

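The deposited values were UMI counts per gene and barcode, which the authors made with STARsolo (STAR version 2.7.0c, build mm10; all per the submitters' processing notes); the annotation, the strand setting and any barcode filter are not given in the sources used here. Libraries were 10x Single Cell 3' v2, per the labels' protocols. The deposited counts are whole numbers with 2472 to 3532 barcodes per library. Cells were kept at 1000 UMIs, 500 genes and at most 10% mitochondrial UMIs. UMIs were summed per library and scaled to CPM, and cells were thinned without replacement to 3000 UMIs for shares. Gene positions came from GENCODE M21 on GRCm38 (mm10) and start sites from RefSeq on GRCm38.p6. The 10 members lie as follows in 1-based coordinates: Dntt chr19:41029275-41059525 (plus), Il7r chr15:9505788-9530176 (minus), Ly6d chr15:74762056-74763620 (minus), Satb1 chr17:51736187-51833290 (minus), Tespa1 chr10:130322870-130364111 (plus), Plac8 chr5:100553725-100572245 (minus), Rag1 chr2:101638282-101649501 (minus), Ikzf1 chr11:11685003-11772926 (plus), Mef2c chr13:83504034-83667080 (plus) and Cd52 chr4:134082448-134095082 (minus). A share of 0 of n cells was given the limit of 3 of n.

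The members, the gene lists and the tests were chosen with earlier results of these data known. The genes named were the 10 members, the 3 highest and 3 lowest ratios to Mx among the other lymphoid lists, the genes of the genotypes and of the cell rule, Procr and Hlf, and the 4 genes with the highest phi coefficient. Gm5611 and Cd48, and genes named beside co-detection or as absent markers, lay outside this rule. No p-value was computed. Male cells held UMIs of Uty, Kdm5d, Ddx3y or Eif2s3y but not of Xist, and female cells the reverse; another 208, 283, 227 and 66 cells held both and 510, 442, 406 and 651 neither, so a call can be wrong. Python 3.11.15 with numpy 2.4.6, scipy 1.17.1, pandas 2.3.3 and matplotlib 3.10.9 was used, and TMM factors came from edgeR 4.0.16 in R 4.3.3. The ratio, interval and thinning code was tested on simulated data.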

Additional observations from a re-analysis of the deposited data

Results flagged for a closer look

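For 2 members the male and the female cells of a mutant library lay on opposite sides of the Mx cells of their own sex with both counting intervals clear of no difference, and neither difference was tested. Cd52 in NPMc+ against Mx had a log2 ratio of 0.66 in female cells and -0.33 in male cells, so that the even level of the whole library joined cells in which it was 1.57-fold higher (1.32 to 1.89) and cells in which it was 1.26-fold lower (1.12 to 1.41). Mef2c in NPMc+/Flt3-ITD against Mx had a log2 ratio of 0.19 in female cells and -0.72 in male cells. The lower Mef2c level of that library was thus seen in its male cells, which make up 93.1% of the cells with a sex call, and female cells were 1.14-fold above the female Mx cells (1.01 to 1.28).

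Barcodes left out by the cell filter carried members as well. In NPMc+/Flt3-ITD 211 barcodes were left out, with a median of 458 UMIs, against 207 with a median of 141 UMIs in Mx. Their Dntt level was 192 CPM (21 UMIs, against 0 in the Mx barcodes left out, at least 3.06-fold higher against a floor of 3 UMIs over the group). Tespa1 stood at 330 CPM (36 against 2 UMIs, 7.87-fold, 2.03 to 67.5) and Ikzf1 at 137 CPM (15 against 1 UMI, 6.56-fold, 1.01 to 276). These barcodes can hold free RNA or small cells, and which of them they hold was not tested.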

How the results depend on the processing

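No paired analysis was possible because each genotype had 1 library, and no test was run, so no result has a replicate check. For NPMc+ against Mx, 0 members were counted, and 1 with TMM factors (Plac8), 1 with no CPM floor (Ly6d), 2 at 1.5-fold (Tespa1 and Plac8), 2 in female cells (the same pair), 1 with cells thinned to 3000 UMIs (Plac8) and 1 in cells holding Procr and Hlf (Tespa1). For Flt3-ITD against Mx, the 1 counted member became 2 with TMM factors, 2 without mitochondrial and ribosomal protein genes in the total, 2 at a floor of 5 CPM, 3 with no floor, 2 at 1.5-fold, 2 in male cells, 0 in female cells and 2 in Procr and Hlf cells. For the combined genotype, 5 members against Mx became 3 without cells holding both Tcf7 and Bcl11b, 3 without cells holding either and 3 in Procr and Hlf cells; 5 against NPMc+ became 3 in each of these and 3 in female cells (Dntt and Ly6d higher, Cd52 lower; Tespa1, Satb1 and Plac8 no longer counted); 5 against Flt3-ITD became 2 in each of the 3. The log2 ratio of Satb1 to Mx turned to -0.15 in Procr and Hlf cells. Over the 16 alternatives the ratio of the combined genotype to Mx ran from 27.0 to 1738 for Dntt (the latter a bound, as 0 Mx UMIs were left without the top 1% of cells), 5.06 to 11.2 for Tespa1 and 3.93 to 6.76 for Plac8. With 0 to 29 UMIs in Mx, Rag1 has at most a bound there, and Ly6d, Il7r and Dntt have wide intervals.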
